A study of Mus musculus with 45 samples.

Results

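Glucose reaches the cytosol of a heart muscle cell through transporters in its membrane, is phosphorylated, and is broken down to pyruvate, which either becomes lactate or enters the mitochondria. 10 genes of this route were followed: the transporters Slc2a4 and Slc2a1, the hexokinases Hk1 and Hk2, the isomerase Gpi1, the phosphofructokinases Pfkm and Pfkp, the pyruvate kinase Pkm, the lactate dehydrogenase Ldha and the pyruvate dehydrogenase kinase Pdk4. They were chosen by symbol, and all 10 were among the 27007 genes of the count table and among the 15444 that passed a filter on low counts. The RNA came from the left ventricle of wild-type mice that were operated on within 24 h of birth and kept with their mothers. The operation was a sham procedure, a constriction of the aorta, named nAAC, or a reversible form of that constriction, named Rev-nAAC. For each operation 5 libraries were made at 4 weeks, 5 at 6 weeks and 5 at 8 weeks, giving 9 groups and 45 libraries. The strain and the age at which the reversible constriction was released are not given in the sources used here. Nothing in the labels says that libraries of 1 group came from separate mice, so the p-values measure the spread between these libraries.

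As background, Slc2a4 encodes GLUT4, the insulin-responsive glucose transporter of muscle and fat, and Slc2a1 encodes GLUT1, which sits in the membrane without insulin and is the main form in the fetal heart. Hexokinase and phosphofructokinase each come as several isozymes. Hk2 and Pfkm are the forms typical of adult striated muscle, while Hk1 and Pfkp are found in many other cells. Pyruvate dehydrogenase kinase 4 switches off the entry of pyruvate into the citric acid cycle, and its gene is known to respond to fasting and to fatty acids. The adult heart draws most of its energy from fatty acids, and a greater use of glucose is a known feature of the fetal heart and of the heart under pressure load.

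The promoters of 3 members are shown because these genes were called at every age in nAAC against sham and have 1 start each in the table used. Slc2a1 and Pfkp were higher and Hk2 was lower. Each sequence runs 5′ to 3′ on the strand of its gene, from 250 bases before to 50 bases after the start, and was taken from RefSeq for build GRCm38.p6. Capitals mark ACGTG or GCGTG, the core letters of a hypoxia-response element, or their reverse complements CACGT and CACGC. The regions are chr4:119108495-119108794 on the plus strand for Slc2a1, chr13:6648722-6649021 on the minus strand for Pfkp and chr6:82774405-82774704 on the minus strand for Hk2. For Pfkp the whole region lies within the RefSeq span of the gene, chr13:6579874-6649060, so the start used is not the outer end of that span.
Slc2a1: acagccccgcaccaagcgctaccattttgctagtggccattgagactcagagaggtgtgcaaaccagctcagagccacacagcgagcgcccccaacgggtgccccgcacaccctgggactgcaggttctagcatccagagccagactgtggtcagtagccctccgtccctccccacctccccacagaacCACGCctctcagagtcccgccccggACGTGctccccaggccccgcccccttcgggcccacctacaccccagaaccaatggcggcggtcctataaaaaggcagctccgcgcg
Pfkp: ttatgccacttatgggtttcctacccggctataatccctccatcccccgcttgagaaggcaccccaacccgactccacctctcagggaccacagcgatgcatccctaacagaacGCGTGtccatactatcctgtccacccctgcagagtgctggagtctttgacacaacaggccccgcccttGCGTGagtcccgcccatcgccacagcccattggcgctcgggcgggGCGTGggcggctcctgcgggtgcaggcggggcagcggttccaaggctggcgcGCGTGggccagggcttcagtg
Hk2: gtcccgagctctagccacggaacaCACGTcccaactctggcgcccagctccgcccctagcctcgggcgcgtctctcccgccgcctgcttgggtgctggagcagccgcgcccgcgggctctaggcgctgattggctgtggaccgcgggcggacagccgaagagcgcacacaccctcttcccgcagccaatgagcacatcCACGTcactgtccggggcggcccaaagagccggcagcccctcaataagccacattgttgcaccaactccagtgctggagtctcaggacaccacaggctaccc
There were 2 matches in the Slc2a1 promoter, 4 in that of Pfkp and 2 in that of Hk2. Of all 32851 promoters of the same length, 43.8% held at least 1 match, 20.6% at least 2 and 3.86% at least 4. The letters ACGTG also lie within CACGTG, a core that other factors recognise. Hk2, which fell, held as many matches as Slc2a1, which rose, and a match is a description of letters, not a binding site. A promoter was found for 9 of the 10 members, and that of Slc2a4 was not used here.

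In sham ventricles Slc2a4 and Pfkm had much higher levels than Slc2a1 and Pfkp. CPM are counts relative to a library's scaled total, and once divided by the length of a gene they can be compared between genes. With the length of merged exons, Pfkm had 257 ± 40.1 CPM per kb at 8 weeks (SD, n = 5), Pkm 235 ± 20.8 and Ldha 224 ± 14.3 CPM per kb, and the ranges of these 3 genes overlapped. With the length of the longest transcript, a choice added after seeing the data, the same genes had 298 ± 46.5, 483 ± 42.8 and 408 ± 26.1 CPM per kb, so which of them is highest depends on the length. By merged exons Pdk4 had 129 ± 35.2, Slc2a4 119.7 ± 13.5 and Gpi1 93.4 ± 6.28 CPM per kb, with values of Pdk4 that overlapped those of the other two, and by the longest transcript Gpi1 had 189 ± 12.7 CPM per kb. Hk2 had 44.3 ± 5.71 and Hk1 22.4 ± 0.803 CPM per kb by merged exons, without overlap, but 48.0 ± 6.18 and 44.7 ± 1.60 CPM per kb by the longest transcript, with overlap. At the low end under both lengths were Pfkp, with 5.33 ± 0.685 CPM per kb by merged exons, and Slc2a1, with 3.12 ± 0.419 CPM per kb. In these sham libraries at 8 weeks 8 cardiomyocyte markers summed to 47586 to 64023 CPM, while 3 atrial markers summed to 1.35 to 133 CPM. Over all libraries the highest atrial sum was 339 CPM, in nAAC 6-week replicate 1.

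Library totals lay between 31586082 and 35965976 counts, so the least abundant member, Slc2a1, still had at least 262 counts in every library. Library nAAC 4-week replicate 1 carries the treatment tag of a sham sample against its title and was kept by its title. By Xist and Y-linked transcripts all 15 sham libraries were male, while 3, 4 and 2 of 5 nAAC libraries and 2, 2 and 4 of 5 Rev-nAAC libraries were female at 4, 6 and 8 weeks. Sex and operation therefore overlap in part, and the values in male libraries are given where they end a call. Of the 14 calls between operations that were lost in male libraries, 13 were kept with sex as a covariate over all libraries, the exception being Pfkm in Rev-nAAC against sham at 8 weeks. Libraries doubted for other reasons were nAAC 4-week replicate 5 (cardiomyocyte markers in the sham range), Rev-nAAC 4-week replicate 2 (red cell transcripts) and sham 4-week replicate 1 and Rev-nAAC 8-week replicate 4 (adipocyte transcripts).

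**Figure D1:**
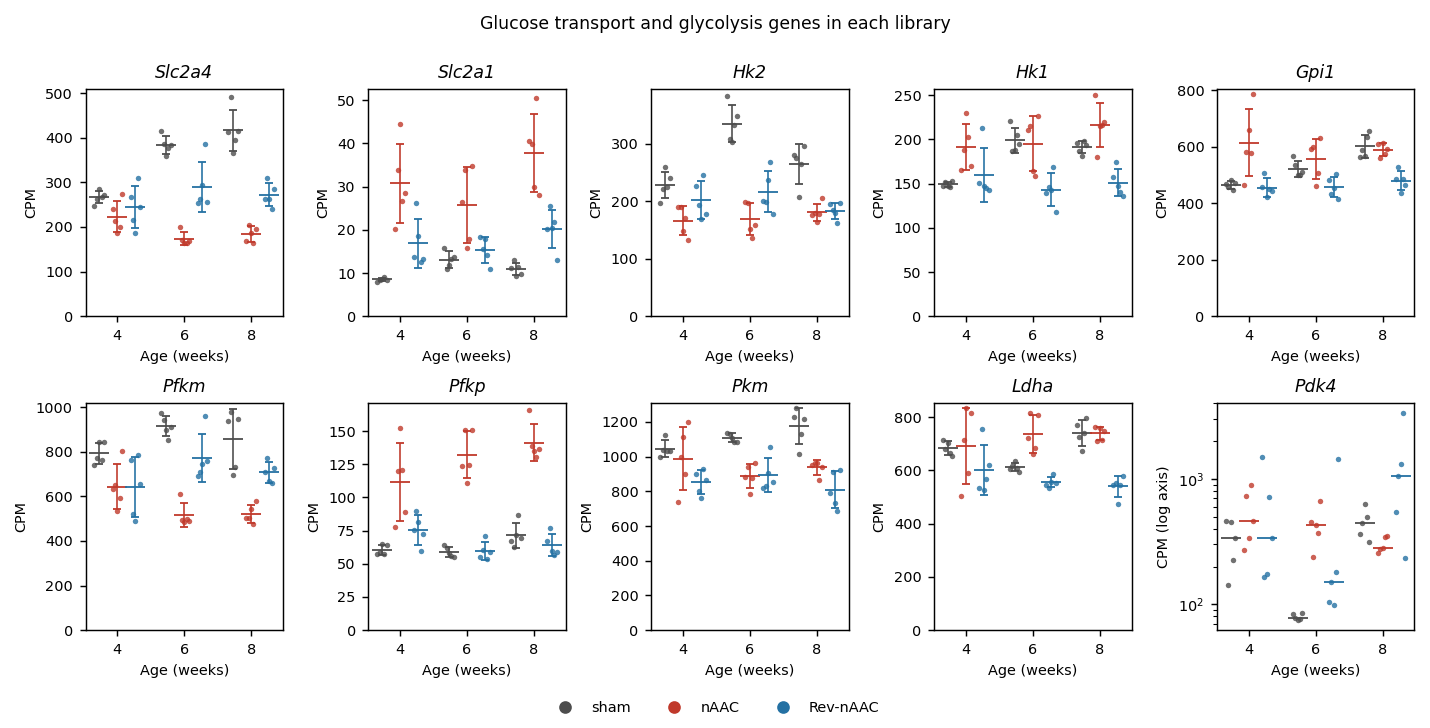
CPM of the 10 genes (vertical axis) by age in weeks (horizontal axis) for sham, nAAC and Rev-nAAC. Each point is 1 library, and bars give mean ± SD of 5 libraries except for Pdk4, which is on a log axis with the median; the means of Slc2a1 and Pfkp are highest in nAAC at each age, and the nAAC points of Slc2a4 and Pfkm lie under all others at 6 and 8 weeks.

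In nAAC against sham, Slc2a1 and Pfkp rose and Hk2 and Pfkm fell at all 3 ages, and Slc2a4 and Pkm fell at 6 and 8 weeks. At 4 weeks 4 of the 10 genes were higher and 2 lower, beside 19.5% and 21.2% of all genes tested (40.7% in either direction). At 6 weeks 4 of the 10 genes were higher and 4 lower, beside 24.5% and 23.8% of all genes tested (48.3% in either direction). At 8 weeks 2 of the 10 genes were higher and 4 lower, beside 23.8% and 23.5% of all genes tested (47.2% in either direction). A gene was called when its p-value from edgeR's quasi-likelihood test, adjusted over all 15444 genes by Benjamini-Hochberg, was under 0.05. The median log2 fold change of the 10 genes was 0.19, 0.03 and -0.18 at 4, 6 and 8 weeks, beside -0.03, 0.02 and 0.02 over all genes tested.

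In ventricles with the reversible constriction, Slc2a4 and Pfkm were higher and Slc2a1 and Pfkp lower than in nAAC at 6 and 8 weeks, and at 8 weeks Hk1, Gpi1 and Ldha were lower than in both other groups. In Rev-nAAC against nAAC at 4 weeks, 0 of the 10 genes were higher and 3 lower, beside 0.79% and 1.76% of all genes tested (2.55% in either direction). At 6 weeks 3 of the 10 genes were higher and 5 lower, beside 13.8% and 12.1% of all genes tested (25.9% in either direction). At 8 weeks 3 of the 10 genes were higher and 5 lower, beside 16.9% and 16% of all genes tested (32.9% in either direction). Against sham at 4 weeks, 1 of the 10 genes were higher and 2 lower, beside 12.2% and 13.1% of all genes tested (25.3% in either direction). At 6 weeks 1 of the 10 genes were higher and 4 lower, beside 8.66% and 8.39% of all genes tested (17.1% in either direction). At 8 weeks 1 of the 10 genes were higher and 7 lower, beside 18.3% and 17.3% of all genes tested (35.6% in either direction). In a fit of the compared groups alone, the genes called at 4 weeks in Rev-nAAC against nAAC were -0.86 (adjusted p = 0.348) for Slc2a1, -0.43 (adjusted p = 0.42) for Gpi1 and -0.57 (adjusted p = 0.387) for Pfkp, and why these calls were lost was not tested.

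**Figure D2:**
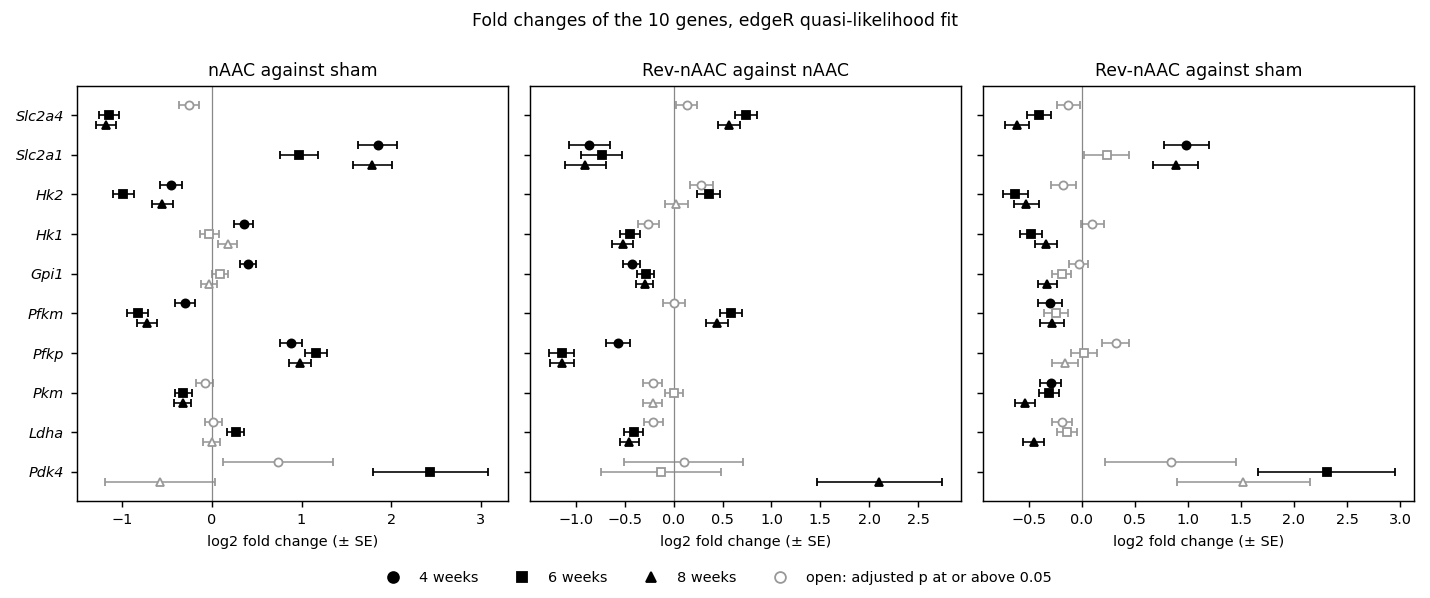
Log2 fold changes (horizontal axis, ± SE) of the 10 genes from edgeR's quasi-likelihood fit for nAAC against sham, Rev-nAAC against nAAC and Rev-nAAC against sham at 3 ages. Filled symbols have an adjusted p under 0.05 and open ones do not; in Rev-nAAC against sham at 8 weeks 7 filled symbols lie to the left of 0 and 1, Slc2a1, to the right.

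Slc2a4 (chr11:69942286-69948216, minus strand) fell in nAAC at 6 and 8 weeks. At 4 weeks it was 247, 264, 286, 266 and 272 CPM in sham and 239.8, 214, 187, 201 and 274 CPM in nAAC. The 2 groups overlapped, and the log2 fold change of -0.26 ± 0.11 (adjusted p = 0.0584) did not pass. At 6 weeks sham libraries had 416, 385, 358, 377 and 383 CPM and nAAC libraries 199, 171, 165, 164 and 169 CPM. At 8 weeks the values were 413, 492, 365, 396 and 414 CPM in sham and 169, 204, 187, 164 and 196 CPM in nAAC. Each nAAC library lay below every sham library of its age, with log2 fold changes of -1.15 ± 0.11 (adjusted p = 9.77e-11) and -1.18 ± 0.11 (adjusted p = 7.22e-11). The 4-week value passed without nAAC 4-week replicate 1, at -0.29 (adjusted p = 0.0468), without replicate 5, at -0.32 (adjusted p = 0.0183), with voom, at -0.33 (adjusted p = 0.00164), in male libraries, at -0.39 (adjusted p = 0.0201) and without the 5 doubted libraries, at -0.41 (adjusted p = 0.00677).

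In Rev-nAAC, Slc2a4 was 266, 216, 186, 309 and 244 CPM at 4 weeks, 255, 262, 294, 386 and 256 CPM at 6 weeks and 263, 309, 264, 240.2 and 286 CPM at 8 weeks. At 6 and 8 weeks every Rev-nAAC library lay above every nAAC library, with log2 fold changes of 0.74 ± 0.11 (adjusted p = 4.23e-06) and 0.56 ± 0.11 (adjusted p = 1.43e-04). It stayed under sham at those ages, with log2 fold changes of -0.40 ± 0.11 (adjusted p = 0.0101) and -0.61 ± 0.11 (adjusted p = 3.31e-05), and at 8 weeks without overlap. At 4 weeks neither difference passed. The 8-week rise over nAAC was 0.59 (adjusted p = 0.0525) in male libraries, where Rev-nAAC has 1.

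Slc2a1 (chr4:119108745-119137330, plus strand) rose in nAAC at every age. At 4 weeks it was 8.04, 8.48, 8.53, 9.21 and 8.40 CPM in sham and 20.2, 33.9, 44.4, 26.8 and 28.5 CPM in nAAC. At 6 weeks the values were 15.9, 10.98, 11.9, 13.2 and 13.7 CPM in sham and 26.5, 33.7, 15.8, 17.8 and 34.7 CPM in nAAC. At 8 weeks they were 11.1, 13.0, 9.27, 11.47 and 9.84 CPM in sham and 40.6, 39.9, 29.9, 50.5 and 28.1 CPM in nAAC. The groups did not overlap at 4 and 8 weeks, and at 6 weeks nAAC replicate 3 lay under the highest sham library. The log2 fold changes were 1.85 ± 0.22 (adjusted p = 1.43e-08), 0.97 ± 0.21 (adjusted p = 2.15e-04) and 1.79 ± 0.21 (adjusted p = 1.01e-08).

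With the reversible operation Slc2a1 was 13.8, 26.2, 18.5, 12.6 and 13.3 CPM at 4 weeks, 18.4, 15.6, 18.0, 14.2 and 11.1 CPM at 6 weeks and 20.2, 25.4, 20.5, 21.8 and 13.1 CPM at 8 weeks. It was lower than in nAAC at all 3 ages, with log2 fold changes of -0.86 ± 0.21 (adjusted p = 0.0186), -0.74 ± 0.21 (adjusted p = 0.00766) and -0.90 ± 0.21 (adjusted p = 8.80e-04), and the groups were apart only at 8 weeks. The 4-week call was lost without nAAC replicate 3, at -0.69 (adjusted p = 0.124), and without Rev-nAAC replicate 4 or 5, at -0.77 (adjusted p = 0.0623) and -0.79 (adjusted p = 0.0647). Against sham, Slc2a1 was higher at 4 weeks, 0.98 ± 0.21 (adjusted p = 6.87e-04), and at 8 weeks, 0.89 ± 0.21 (adjusted p = 0.00108), but the 6-week value of 0.23 ± 0.21 (adjusted p = 0.478) did not pass. At 8 weeks the 4 female Rev-nAAC libraries had 20.2 to 25.4 CPM and the 1 male library 13.1 CPM, beside 13.0 CPM in the highest sham library, and in male libraries the difference from sham was 0.27 (adjusted p = 0.495). With sex as a covariate over all libraries it was 0.88 (adjusted p = 0.00529). Rev-nAAC 4-week replicate 2, highest in its group, is the library with the most red cell transcripts, and without the 5 doubted libraries the rise over sham at 4 weeks was 0.77 (adjusted p = 0.0123).

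Of the hexokinases, Hk2 (chr6:82725025-82774454, minus strand) fell in nAAC at each age and Hk1 (chr10:62268855-62379920, minus strand) rose at 4 weeks. Hk2 at 4 weeks was 196, 221, 259, 225 and 239.9 CPM in sham and 190.0, 191, 147, 171 and 133 CPM in nAAC. At 6 weeks sham had 383, 309, 303, 332 and 347 CPM and nAAC 198, 198, 152, 137 and 159.5 CPM. At 8 weeks sham had 280.3, 276, 207, 265 and 295 CPM and nAAC 177, 179, 165, 177 and 205 CPM. At each age the highest nAAC library was lower than the lowest sham library, though at 8 weeks only by a small margin. The log2 fold changes were -0.46 ± 0.12 (adjusted p = 0.00184), -0.99 ± 0.12 (adjusted p = 7.53e-09) and -0.55 ± 0.12 (adjusted p = 1.57e-04).

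Hk2 in Rev-nAAC was 227, 193, 169, 246 and 178 CPM at 4 weeks, 201, 199, 236, 269 and 178 CPM at 6 weeks and 194, 185, 179.5, 163 and 198 CPM at 8 weeks. The difference from nAAC at 8 weeks did not pass, at 0.03 ± 0.12 (adjusted p = 0.888). Its rise over nAAC at 6 weeks, 0.36 ± 0.12 (adjusted p = 0.0194), was lost without nAAC replicate 3, nAAC replicate 4 or Rev-nAAC replicate 4, at 0.31 (adjusted p = 0.0563), 0.29 (adjusted p = 0.0735) and 0.27 (adjusted p = 0.109), in male libraries, at 0.06 (adjusted p = 0.91), and in a fit of the compared groups alone, at 0.36 (adjusted p = 0.0627). Hk2 stayed under sham at 6 weeks, -0.63 ± 0.12 (adjusted p = 3.02e-04), and at 8 weeks, -0.53 ± 0.12 (adjusted p = 4.86e-04), without overlap at either age. In male libraries the 8-week difference from sham was -0.41 (adjusted p = 0.168).

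Hk1 at 4 weeks was 147, 152, 148, 146 and 152 CPM in sham and 165, 188, 230.0, 202 and 170.0 CPM in nAAC. All nAAC libraries were above all sham libraries, with a log2 fold change of 0.36 ± 0.11 (adjusted p = 0.00601). At 6 weeks it ranged over 187 to 221 CPM in sham and 159 to 226 CPM in nAAC, and at 8 weeks over 181 to 198 and 181 to 250.1 CPM, with log2 fold changes of -0.03 ± 0.11 (adjusted p = 0.835) and 0.18 ± 0.11 (adjusted p = 0.162) that did not pass. The 8-week value passed with the compared groups alone, at 0.18 (adjusted p = 0.0479). In Rev-nAAC the ranges were 143 to 213 CPM at 4 weeks, 117 to 169 at 6 weeks and 136 to 174 at 8 weeks. Hk1 was lower than in sham at 6 and 8 weeks, without overlap, at -0.48 ± 0.11 (adjusted p = 0.00176) and -0.34 ± 0.11 (adjusted p = 0.0101). It was also lower than in nAAC at those ages, at -0.45 ± 0.11 (adjusted p = 0.00144) and -0.52 ± 0.11 (adjusted p = 2.07e-04). The 4-week difference from nAAC, -0.26 ± 0.11 (adjusted p = 0.178), passed without Rev-nAAC replicate 2, the library with the most red cell transcripts, at -0.40 (adjusted p = 0.0257), and also with voom, at -0.33 (adjusted p = 0.0446), in male libraries, at -0.51 (adjusted p = 0.01) and without the 5 doubted libraries, at -0.51 (adjusted p = 0.00381).

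Gpi1 (chr7:34201327-34230336, minus strand), which turns glucose 6-phosphate into fructose 6-phosphate, was 468, 457, 484, 446 and 472 CPM in sham and 466, 582, 661, 578 and 786 CPM in nAAC at 4 weeks. It rose by a log2 fold change of 0.40 ± 0.09 (adjusted p = 4.20e-04), although nAAC replicate 1 lay within the sham range. The differences at 6 and 8 weeks, 0.09 ± 0.09 (adjusted p = 0.401) and -0.03 ± 0.09 (adjusted p = 0.809), did not pass. In Rev-nAAC it ranged over 423 to 509, 415 to 504 and 438 to 529.6 CPM at 4, 6 and 8 weeks, beside 461 to 631 and 561 to 614 CPM in nAAC at the later ages. Gpi1 was lower than in nAAC at all 3 ages, at -0.43 ± 0.09 (adjusted p = 0.00819), -0.29 ± 0.09 (adjusted p = 0.0153) and -0.30 ± 0.09 (adjusted p = 0.00978). The 6-week call was lost without nAAC replicate 5, at -0.24 (adjusted p = 0.0517), or Rev-nAAC replicate 5, at -0.25 (adjusted p = 0.0511), and with the compared groups alone, at -0.29 (adjusted p = 0.0589), and the 8-week call in male libraries, at -0.34 (adjusted p = 0.103). Against sham it was lower at 8 weeks, -0.33 ± 0.09 (adjusted p = 0.00389), where sham libraries had 565 to 656 CPM and no libraries overlapped. The 6-week difference from sham, -0.19 ± 0.09 (adjusted p = 0.139), passed with voom, at -0.20 (adjusted p = 0.0171), in male libraries, at -0.26 (adjusted p = 0.0144) and without the 5 doubted libraries, at -0.19 (adjusted p = 0.0493).

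The phosphofructokinases, which catalyse the committed step of glycolysis, moved in opposite directions. Pfkp (chr13:6579874-6649060, minus strand) at 4 weeks was 57.6, 58.7, 64.9, 57.7 and 64.3 CPM in sham and 77.7, 120.3, 152, 120.5 and 88.7 CPM in nAAC. At 6 weeks it was 64.0, 61.6, 57.9, 56.1 and 55.5 CPM in sham and 124, 151, 111, 125 and 151 CPM in nAAC. At 8 weeks sham had 67.1, 62.3, 71.5, 86.6 and 69.5 CPM and nAAC 166, 139, 135, 130.4 and 136 CPM. The groups did not overlap at any age, and the log2 fold changes were 0.88 ± 0.12 (adjusted p = 3.35e-07), 1.16 ± 0.12 (adjusted p = 6.90e-10) and 0.98 ± 0.12 (adjusted p = 2.06e-08).

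In Rev-nAAC Pfkp was 75.3, 89.6, 81.5, 59.3 and 72.1 CPM at 4 weeks, 55.3, 60.5, 71.1, 53.4 and 58.8 CPM at 6 weeks and 67.5, 77.1, 59.4, 56.8 and 59.1 CPM at 8 weeks. At 6 and 8 weeks it was lower than in every nAAC library, with log2 fold changes of -1.14 ± 0.12 (adjusted p = 1.85e-08) and -1.14 ± 0.12 (adjusted p = 1.49e-08). At 4 weeks the difference was -0.57 ± 0.12 (adjusted p = 0.0103), and -0.43 (adjusted p = 0.0875) without nAAC replicate 3. Against sham the differences of 0.02 ± 0.12 (adjusted p = 0.934) at 6 weeks and -0.16 ± 0.12 (adjusted p = 0.331) at 8 weeks did not pass. The 4-week difference from sham, 0.32 ± 0.12 (adjusted p = 0.0523), passed without sham replicate 5, at 0.36 (adjusted p = 0.0497), without Rev-nAAC replicate 4, at 0.39 (adjusted p = 0.0186), and also with DESeq2, at 0.34 (adjusted p = 0.0402), under RLE scaling, at 0.34 (adjusted p = 0.0409), under upper-quartile scaling, at 0.34 (adjusted p = 0.037), without mitochondrial genes, at 0.34 (adjusted p = 0.0392), with sex as a covariate, at 0.38 (adjusted p = 0.0187) and with the compared groups alone, at 0.34 (adjusted p = 0.0205). It did not pass under the other 14 alternatives.

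Pfkp shares 748 exon bases with Pitrm1, a mitochondrial peptidase gene on the opposite strand, and whether the counting used strand is not given in the sources used here. The log2 fold changes of Pitrm1 in nAAC against sham were 0.02, -0.48 and -0.22 at 4, 6 and 8 weeks, with a fall called at 6 and 8 weeks. Counts per gene do not show where reads of the shared bases went, and the part of the overlap in the Pfkp values was not tested. Pfkm shares 18 exon bases with Senp1 on the opposite strand, and further transcripts that are antisense, long intergenic or unclassified overlap exons of Slc2a1, Hk1, Gpi1, Pfkm or Pkm. Counts of these genes are uncertain to that extent. Pkm and Ldha also have processed pseudogenes, whose treatment in the counting is not given either.

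Pfkm (chr15:98092589-98132447, plus strand) was 741, 774, 845, 762 and 844 CPM in sham and 634, 653, 535, 593 and 802 CPM in nAAC at 4 weeks. At 6 weeks it was 974, 945, 899, 853 and 911 CPM in sham and 610.4, 495, 485, 499 and 491 CPM in nAAC. At 8 weeks sham had 937, 981, 697, 731 and 949 CPM and nAAC 503, 505, 542, 477 and 577 CPM. The groups were apart at 6 and 8 weeks, where the log2 fold changes were -0.83 ± 0.11 (adjusted p = 1.11e-07) and -0.72 ± 0.11 (adjusted p = 1.42e-06). The 4-week fall of -0.30 ± 0.11 (adjusted p = 0.0293) was lost without sham replicate 3 or 5 or nAAC replicate 3 or 4, at -0.28 (adjusted p = 0.0645), -0.25 (adjusted p = 0.0844), -0.24 (adjusted p = 0.108) and -0.27 (adjusted p = 0.0664). It was also lost when nAAC replicate 1 was counted as sham, at -0.25 (adjusted p = 0.0935), and under upper-quartile scaling, without a filter and in a fit of the compared groups alone, with adjusted p-values of 0.0504, 0.0819 and 0.109. The 2 lowest sham libraries at 8 weeks, replicates 3 and 4, also had the 2 lowest sums of cardiomyocyte markers in that group, 47586 and 56418 CPM; the part of this in the result was not tested.

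Pfkm in Rev-nAAC was 762, 523, 491, 784 and 656 CPM at 4 weeks, 690.4, 708, 746, 962 and 757 CPM at 6 weeks and 708, 773, 669, 660.0 and 729 CPM at 8 weeks. At 4 weeks replicates 2 and 3 were lowest and replicates 1 and 4 lay within the sham range, and the difference from nAAC was -0.00 ± 0.11 (adjusted p = 1). At 6 and 8 weeks every library was above every nAAC library, by log2 fold changes of 0.58 ± 0.11 (adjusted p = 1.50e-04) and 0.44 ± 0.11 (adjusted p = 0.00229). Those 2 values were 0.58 (adjusted p = 0.0865) and 0.46 (adjusted p = 0.176) in male libraries, with 1 nAAC male at 6 weeks and 1 Rev-nAAC male at 8 weeks. The differences from sham were small, -0.30 ± 0.11 (adjusted p = 0.0431), -0.25 ± 0.11 (adjusted p = 0.127) and -0.28 ± 0.11 (adjusted p = 0.0486) at 4, 6 and 8 weeks. The 4-week call ended without any 1 of sham replicates 2 to 5 or Rev-nAAC replicates 2, 3 and 5, with adjusted p-values of 0.0528 to 0.169. The 8-week call ended without any 1 of sham replicates 1, 2 and 5 or Rev-nAAC replicates 1, 3, 4 and 5, with adjusted p-values of 0.0538 to 0.139, and the 6-week value passed without Rev-nAAC replicate 4, at -0.34 (adjusted p = 0.0298), and with voom, at -0.29 (adjusted p = 0.0107). Other settings ended the 4-week call in 9 cases, with adjusted p-values of 0.0531 to 0.25, and the 8-week call in 6 cases, with 0.0531 to 0.47.

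Pkm (chr9:59656576-59679372, plus strand), whose product makes pyruvate, was among the members with the most counts, and its splice forms cannot be told apart in counts per gene. Sham libraries had 1138, 1129, 1109, 1087 and 1083 CPM at 6 weeks and 1229.7, 1279.9, 1016, 1128 and 1219 CPM at 8 weeks, and nAAC libraries 884, 941, 784, 879.6 and 961 and 954, 965, 966, 866 and 943 CPM. It fell without overlap at both ages, at -0.32 ± 0.09 (adjusted p = 0.00512) and -0.32 ± 0.09 (adjusted p = 0.00462). The 6-week value in male libraries was -0.23 (adjusted p = 0.182). At 4 weeks nAAC libraries spread over 738 to 1201 CPM, on both sides of the 999 to 1127 CPM of sham, and the difference was -0.08 ± 0.09 (adjusted p = 0.517).

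In Rev-nAAC, Pkm was 791, 914, 733, 684 and 924 CPM at 8 weeks and ranged over 763 to 930.3 CPM at 4 weeks and 818 to 1055 CPM at 6 weeks. It was lower than in sham without overlap at each age, at -0.30 ± 0.09 (adjusted p = 0.0181), -0.31 ± 0.09 (adjusted p = 0.0189) and -0.54 ± 0.09 (adjusted p = 2.17e-05). The 4-week call was lost without sham replicate 3, at -0.27 (adjusted p = 0.0512), or Rev-nAAC replicate 2 or 3, at -0.26 (adjusted p = 0.0562) and -0.26 (adjusted p = 0.0585), and without a filter, at -0.28 (adjusted p = 0.0533) and with nAAC 4-week replicate 1 counted as sham, at -0.22 (adjusted p = 0.0858). The 6-week call was lost without Rev-nAAC replicate 1 or 2, at -0.28 (adjusted p = 0.0619) and -0.29 (adjusted p = 0.0534), and the 8-week value in male libraries was -0.34 (adjusted p = 0.0818). Against nAAC no difference passed, the 8-week one being -0.21 ± 0.09 (adjusted p = 0.0768), although it passed without Rev-nAAC replicate 2 or 5, at -0.27 (adjusted p = 0.0345) and -0.27 (adjusted p = 0.0314), and with DESeq2, at -0.23 (adjusted p = 0.0477) and with voom, at -0.24 (adjusted p = 0.00519). The 4-week difference, -0.21 ± 0.09 (adjusted p = 0.217), passed without nAAC replicate 1, at -0.30 (adjusted p = 0.0273).

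Ldha (chr7:46842274-46855627, plus strand), the subunit that favours the making of lactate, rose in nAAC at 6 weeks. Sham libraries had 606, 618, 636, 609 and 593 CPM and nAAC libraries 722, 815, 661, 683 and 807 CPM at that age. The groups did not overlap, and the log2 fold change was 0.27 ± 0.09 (adjusted p = 0.0177), or 0.23 (adjusted p = 0.0585) without nAAC replicate 2. The 4-week and 8-week values, 0.02 ± 0.09 (adjusted p = 0.902) and -0.00 ± 0.09 (adjusted p = 0.98), did not pass. In Rev-nAAC it was 545, 535, 558, 588 and 554 CPM at 6 weeks and 545, 555, 476, 546 and 581 CPM at 8 weeks, lower than every nAAC library of the same age. The log2 fold changes against nAAC were -0.41 ± 0.10 (adjusted p = 0.00124) and -0.45 ± 0.10 (adjusted p = 3.09e-04), the latter -0.35 (adjusted p = 0.0867) in male libraries. At 6 weeks it was under all sham libraries as well, but the difference of -0.14 ± 0.09 (adjusted p = 0.325) did not pass. At 8 weeks Ldha was also under all sham libraries, 672 to 796 CPM, at -0.46 ± 0.10 (adjusted p = 2.13e-04). At 4 weeks, Rev-nAAC libraries ranged over 527 to 755 CPM with replicate 2 highest, and the differences of -0.21 ± 0.09 (adjusted p = 0.24) from nAAC and -0.19 ± 0.09 (adjusted p = 0.144) from sham did not pass. The first passed without nAAC replicate 1, at -0.30 (adjusted p = 0.0256), and also in male libraries, at -0.52 (adjusted p = 0.00172), with nAAC 4-week replicate 1 counted as sham, at -0.30 (adjusted p = 0.0466) and without the 5 doubted libraries, at -0.36 (adjusted p = 0.0122). The second passed without Rev-nAAC replicate 2, at -0.27 (adjusted p = 0.0319), and also with voom, at -0.23 (adjusted p = 0.0127), in male libraries, at -0.32 (adjusted p = 0.00226) and without the 5 doubted libraries, at -0.25 (adjusted p = 0.023).

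Pdk4 (chr6:5483351-5496278, minus strand) varied most between libraries. At 6 weeks sham libraries had 83.6, 77.1, 75.2, 75.9 and 85.2 CPM, the lowest and tightest group, and nAAC libraries had 451, 239, 426, 369 and 668 CPM. At 4 weeks sham had 461, 142, 451, 226 and 340.4 CPM and nAAC 269, 737, 339, 895 and 459 CPM. At 8 weeks sham had 366, 448, 634, 498 and 316 CPM and nAAC 258, 277, 282, 345 and 349.5 CPM. The groups were apart at 6 weeks, where the log2 fold change was 2.44 ± 0.65 (adjusted p = 0.00198), and 1.59 (adjusted p = 0.207) in male libraries. The 4-week and 8-week differences, 0.74 ± 0.61 (adjusted p = 0.352) and -0.58 ± 0.61 (adjusted p = 0.462), did not pass, though the latter did with the compared groups alone, at -0.58 (adjusted p = 0.0142).

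Pdk4 in Rev-nAAC was 1493, 166, 173, 723 and 340.5 CPM at 4 weeks, 104, 151, 99.1, 181 and 1431 CPM at 6 weeks and 548, 1064, 1306, 3343 and 234 CPM at 8 weeks. Single libraries set the group values: replicate 5 at 6 weeks and replicate 4 at 8 weeks were each well above the next. Against sham at 6 weeks the log2 fold change was 2.31 ± 0.64 (adjusted p = 0.0117), and without replicate 5 it was 0.75 (adjusted p = 0.357); fitted on the compared groups alone it had an adjusted p of 0.0872. Against nAAC at 6 weeks it was -0.13 ± 0.61 (adjusted p = 0.903), and without that library -1.68 (adjusted p = 0.0226). At 8 weeks the rise over nAAC was 2.1 ± 0.64 (adjusted p = 0.0103), and 1.37 (adjusted p = 0.0954) without replicate 4. In male libraries it was -0.34 (adjusted p = 0.915). The 8-week difference from sham, 1.52 ± 0.62 (adjusted p = 0.0541), passed without Rev-nAAC replicate 1, at 1.71 (adjusted p = 0.0405), or replicate 5, at 1.79 (adjusted p = 0.0216).

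The 11 tested genes of a list of fasting and PPAR targets were compared with Pdk4 library by library. At 6 weeks 7 of them were highest in Rev-nAAC replicate 5, as Pdk4 was, and Acadm, Plin5, Slc25a20 and Ucp2 were highest in replicate 4. At 8 weeks 10 were highest in replicate 4, with Cpt1a highest in replicate 2, and 10 were lowest in replicate 5, with Ucp2 lowest in replicate 1. The pair shown here was chosen after its values were seen. Ucp3, a mitochondrial carrier, was 16.1, 14.2, 10.3, 32.5 and 65.3 CPM in Rev-nAAC replicates 1 to 5 at 6 weeks and 36.6, 68.4, 65.7, 99.8 and 12.2 CPM at 8 weeks. Angptl4, an inhibitor of lipoprotein lipase, was 4.38, 3.79, 1.05, 4.21 and 32.6 CPM at 6 weeks and 11.7, 15.4, 31.9, 53.1 and 1.77 CPM at 8 weeks. Rev-nAAC 8-week replicate 4 also had the highest sum of 6 adipocyte markers, 157 CPM, beside a group median of 0.141 CPM. Clock genes differed between the groups as well: Dbp was 155, 116, 119, 129 and 129.7 CPM in sham and 21.4, 14.97, 10.2, 7.89 and 18.7 CPM in nAAC at 6 weeks. The hour of collection and feeding state are not given in the sources used here, and their part in the Pdk4 values was not tested.

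The change in balance within each step can be read as the share of a gene in a pair of related genes, computed per library from CPM per kb. Slc2a1 made up 3.08% ± 0.168 (SD, n = 5), 3.27% ± 0.339 and 2.54% ± 0.181 of Slc2a1 plus Slc2a4 in sham at 4, 6 and 8 weeks. In nAAC the shares were 12.3% ± 4.42, 12.7% ± 3.78 and 17.0% ± 4.41. In Rev-nAAC they were 6.72% ± 2.96, 5.12% ± 1.29 and 6.89% ± 1.49. At 8 weeks the 3 groups held 2.30% to 2.79%, 12.5% to 23.4% and 4.36% to 8.26% without overlap, so Slc2a4 still made up most of the transporter transcripts in every library.

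Pfkp made up 1.87% ± 0.0188, 1.58% ± 0.0491 and 2.09% ± 0.560 of Pfkp plus Pfkm in sham, and 4.30% ± 1.59, 6.05% ± 1.02 and 6.36% ± 0.778 in nAAC (SD, n = 5). Its shares in Rev-nAAC were 2.997% ± 0.990, 1.92% ± 0.353 and 2.20% ± 0.178, under every nAAC library at 6 and 8 weeks. At 6 weeks 4 Rev-nAAC libraries, 1.96%, 2.09%, 2.32% and 1.90%, lay above the 1.49% to 1.61% of sham and replicate 4, at 1.36%, lay below it. At 8 weeks the 1.98% to 2.43% of Rev-nAAC lay within the 1.56% to 2.87% of sham. Hk1 made up 31.5% ± 2.17, 29.4% ± 0.914 and 33.7% ± 2.62 of Hk1 plus Hk2 in sham, 44.6% ± 5.58, 44.7% ± 2.96 and 45.6% ± 3.46 in nAAC, and 35.7% ± 5.61, 31.7% ± 1.67 and 36.5% ± 2.64 in Rev-nAAC. The size of the hexokinase share depends on the length used: with the longest transcript in place of merged exons, Hk1 made up 48.4% ± 2.89 in sham and 60.6% ± 3.33 in nAAC at 8 weeks. The size of the Pfkp share depends on it too. With the longest transcript Pfkp made up 2.77% ± 0.734 in sham and 8.28% ± 0.992 in nAAC at that age. The order of the groups is the same under both lengths. No p-value is given for these shares, since each is built from members whose own tests are given with their levels.

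**Figure D3:**
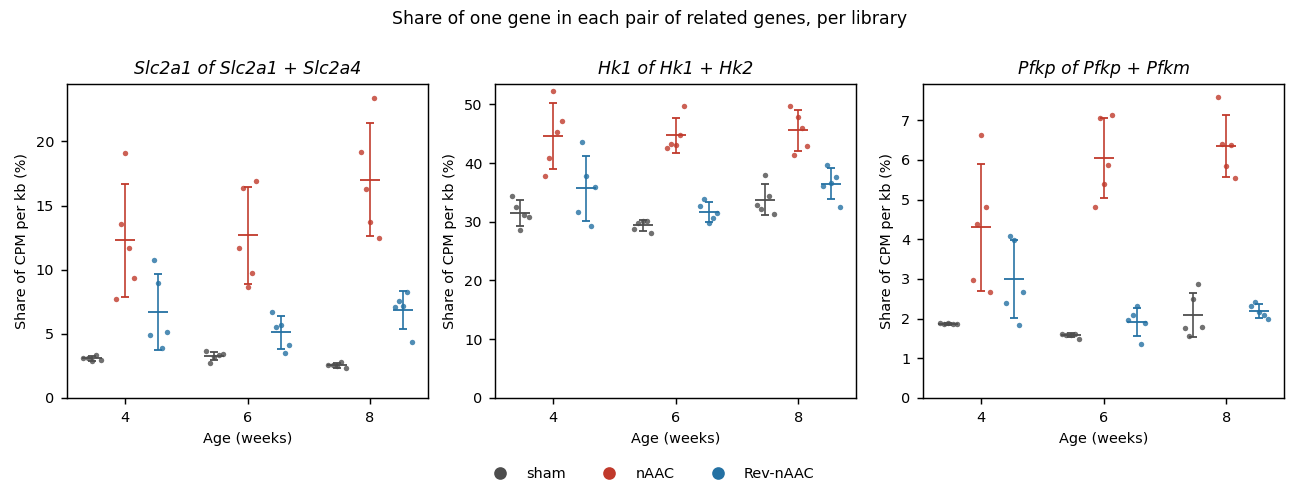
Share (vertical axis, % of CPM per kb) of Slc2a1, Hk1 and Pfkp in their pairs by age in weeks (horizontal axis). Each point is 1 library and bars give mean ± SD of 5; the nAAC means lie highest in all 3 panels, and the Pfkp shares of Rev-nAAC lie within the range of sham at 8 weeks, while at 6 weeks 4 lie above it and 1 below.

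With age, sham ventricles gained transcripts of part of the route. Between 4 and 8 weeks 3 of the 10 genes rose and 0 fell, beside 10.7% and 12% of all genes tested (22.7% in either direction). Slc2a4 rose by 0.64 ± 0.11 (adjusted p = 4.27e-05), Gpi1 by 0.37 ± 0.09 (adjusted p = 0.0021) and Hk1 by 0.36 ± 0.11 (adjusted p = 0.0114), each without overlap. Slc2a1, 8.04 to 9.21 CPM at 4 weeks and 9.27 to 13.0 CPM at 8 weeks, did not overlap either, but its difference of 0.36 ± 0.22 (adjusted p = 0.242) did not pass, though it did with the compared groups alone, at 0.36 (adjusted p = 0.00765). It also passed in the fit of male libraries, at 0.37. All sham libraries are male, so that fit compared the same sham libraries and only the other groups in it changed. In nAAC, Slc2a4 was 223 ± 34.6 CPM at 4 weeks and 184 ± 17.0 CPM at 8 weeks (SD, n = 5), and the difference between the nAAC effects at these ages was -0.92 ± 0.16 (adjusted p = 2.07e-04). For Gpi1 that difference was -0.43 ± 0.13 (adjusted p = 0.0196). Of the 10 genes these 2 were called lower and 0 higher, beside 6.7% and 6.86% of all genes (13.6% in either direction).

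Comparing the effects at 6 and 4 weeks, 4 of the 10 genes were called lower and 0 higher, beside 8.32% and 8.96% of all genes (17.3% in either direction). The effect of nAAC on Slc2a4 was lower at 6 weeks, with a difference of -0.89 ± 0.16 (adjusted p = 8.52e-05) on the log2 scale. The differences were -0.53 ± 0.17 (adjusted p = 0.021) for Hk2 and -0.53 ± 0.16 (adjusted p = 0.0175) for Pfkm. The rise of Slc2a1 was smaller at 6 weeks, with a difference of -0.88 ± 0.30 (adjusted p = 0.036), a call that ended without any 1 of sham 4-week replicates 1 and 2, sham 6-week replicates 1 and 5, nAAC 4-week replicates 2 and 3 and nAAC 6-week replicates 3 and 4, with adjusted p-values of 0.0515 to 0.0876. Over all 32 alternatives 11 ended this call, with adjusted p-values of up to 0.146. The differences of Hk1, -0.39 ± 0.15 (adjusted p = 0.0646), and Gpi1, -0.31 ± 0.13 (adjusted p = 0.0877), did not pass, but did under 9 and 4 of the 32. In male libraries the Slc2a1, Hk2 and Pfkm differences did not pass, with adjusted p-values of 0.0958, 0.459 and 0.268, and without the 5 doubted libraries that of Pfkm was -0.40 (adjusted p = 0.0775). The effects at 6 weeks share the sham libraries in which Pdk4 was low and Dbp high, and their part in the differences was not tested. The difference of Rev-nAAC from nAAC changed from 4 to 6 weeks by 0.61 ± 0.16 (adjusted p = 0.028) for Slc2a4 and 0.58 ± 0.16 (adjusted p = 0.0385) for Pfkm. From 4 to 8 weeks the change was -0.58 ± 0.17 (adjusted p = 0.0338) for Pfkp. At 6 weeks these were 2 of 10 genes higher and 0 lower, beside 1.72% and 0.971% of all genes (2.69% in either direction). At 8 weeks 0 were higher and 1 lower, beside 4.05% and 3.86% (7.91% in either direction). None of these 3 calls held in male libraries, where the adjusted p-values were 0.703, 0.678 and 0.648, and each ended without single libraries. For Slc2a4 these were nAAC 4-week replicate 5, nAAC 6-week replicates 2 and 3, Rev-nAAC 4-week replicates 2 and 3 and Rev-nAAC 6-week replicate 4, with adjusted p-values of 0.0513 to 0.101. For Pfkm they were the same libraries and nAAC 4-week replicate 2, nAAC 6-week replicate 5 and Rev-nAAC 6-week replicate 5, at 0.0504 to 0.118. For Pfkp they were nAAC 4-week replicates 1 and 5, nAAC 8-week replicate 1, Rev-nAAC 4-week replicates 2 and 3 and Rev-nAAC 8-week replicates 3 and 4, at 0.0578 to 0.0759.

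Beyond the 10 genes, lists of the neighbouring steps were read in the same fits. Each is given by its calls and its median log2 fold change in nAAC against sham. Over all genes tested the medians were -0.03, 0.02 and 0.02 at 4, 6 and 8 weeks, and 40.7%, 48.3% and 47.2% were called in either direction. In Rev-nAAC 2.55%, 25.9% and 32.9% of all genes were called against nAAC and 25.3%, 17.1% and 35.6% against sham. The pyruvate dehydrogenase complex and its regulators, which carry pyruvate carbon into the citric acid cycle, lay lower in nAAC. Of 11 genes tested, 2 higher and 7 lower at 4 weeks, 1 higher and 9 lower at 6 weeks and 2 higher and 9 lower at 8 weeks were called, or 81.8%, 90.9% and 100% of the list, with medians of -0.41, -0.63 and -0.66. The subunit genes Dld and Dlat fell by 0.58 ± 0.10 and 0.52 ± 0.09 on the log2 scale at 4 weeks. Pdp2, a phosphatase that switches the complex on, fell from 30.0 ± 2.98 CPM in sham to 6.68 ± 1.32 CPM in nAAC at 6 weeks (SD, n = 5), a log2 fold change of -2.17 ± 0.26. The kinase Pdk2 fell as well, by 0.91 ± 0.11 on the log2 scale at 6 weeks. The kinase Pdk4 went the other way at that age, rising by 2.44 ± 0.65, so the kinase genes did not move together. In Rev-nAAC against nAAC the calls were 0 higher and 0 lower at 4 weeks, 7 higher and 1 lower at 6 weeks and 4 higher and 1 lower at 8 weeks, and against sham they were 1 higher and 6 lower, 0 higher and 7 lower and 0 higher and 7 lower.

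The other glycolytic enzymes were mixed in nAAC and mostly lower in Rev-nAAC at 8 weeks. Of 15 genes tested, 6 higher and 2 lower, 4 higher and 3 lower and 3 higher and 4 lower were called in nAAC against sham at 4, 6 and 8 weeks, or 53.3%, 46.7% and 46.7% of the list, with medians of 0.24, 0.04 and -0.01. Eno3, the muscle enolase, fell by 0.92 ± 0.17, 1.08 ± 0.18 and 1.10 ± 0.18 on the log2 scale, and Eno1, the ubiquitous enolase, rose by 0.57 ± 0.11 at 4 weeks. Ldhb, the heart subunit of lactate dehydrogenase, fell by 0.81 ± 0.12 at 6 weeks and 0.82 ± 0.12 at 8 weeks. In Rev-nAAC against sham 3 higher and 3 lower were called at 4 weeks, 1 higher and 2 lower at 6 weeks and 1 higher and 10 lower at 8 weeks, where the median was -0.43 beside 0.03 over all genes. Among those lower at 8 weeks were Pfkl, the liver phosphofructokinase, by 0.74 ± 0.10, and Pgam1, a phosphoglycerate mutase, by 0.95 ± 0.14 on the log2 scale. Against nAAC at 8 weeks 3 higher and 9 lower were called.

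Of 8 other glucose transporters, 3 higher and 1 lower were called at each age in nAAC against sham, or 50% of the list, with medians of 0.30, 0.07 and 0.03. Slc2a12, which encodes GLUT12, fell from 9.23 ± 1.38 CPM in sham to 1.15 ± 0.310 CPM in nAAC at 6 weeks (SD, n = 5) and had log2 fold changes of -2.61 ± 0.30, -3.01 ± 0.30 and -2.77 ± 0.30. In Rev-nAAC it was 4.17 ± 2.34 CPM at 6 weeks, above nAAC and under sham, with log2 fold changes of 1.86 ± 0.30 and -1.15 ± 0.27. Slc2a10 and the inositol transporter Slc2a13 rose at all 3 ages, at 8 weeks by 0.87 ± 0.16 and 1.54 ± 0.32. Of 17 genes of insulin signalling and of Slc2a4 trafficking, 3 higher and 4 lower, 3 higher and 8 lower and 1 higher and 6 lower were called, with medians of -0.06, -0.16 and -0.14. These are 41.2%, 64.7% and 41.2% of the list, near the shares of all genes at 4 and 8 weeks. Akt2, the insulin-responsive Akt kinase, fell by 0.37 ± 0.07, 0.77 ± 0.07 and 0.60 ± 0.07, and Tbc1d4, an Akt substrate that holds GLUT4 vesicles back, by 0.59 ± 0.19, 1.04 ± 0.19 and 1.19 ± 0.19 on the log2 scale. Both were higher in Rev-nAAC than in nAAC at 8 weeks, by 0.45 ± 0.07 and 1.0 ± 0.19. In that comparison 5 higher and 0 lower of the 17 were called, 29.4% beside 32.9% of all genes, and Irs1, an insulin receptor substrate, was higher by 1.04 ± 0.17.

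The lactate carriers split. Slc16a3, which encodes the lactate exporter MCT4, rose from 1.58 ± 0.341 CPM to 7.03 ± 5.22 CPM at 4 weeks (SD, n = 5), by 2.15 ± 0.39, and by 2.41 ± 0.39 and 2.25 ± 0.38 at 6 and 8 weeks. Slc16a7 and Mpc2, a subunit of the mitochondrial pyruvate carrier, fell at each age, at 6 weeks by 1.44 ± 0.25 and 0.78 ± 0.14 on the log2 scale. In Rev-nAAC, Slc16a3 was lower than in nAAC by 1.92 ± 0.38 at 6 weeks and 2.44 ± 0.38 at 8 weeks. Of these 6 genes 1 higher and 2 lower, 1 higher and 5 lower and 1 higher and 3 lower were called in nAAC against sham, or 50%, 100% and 66.7%, with medians of -0.12, -0.39 and -0.21. Of 15 glycogen genes the calls were 5 higher and 2 lower, 4 higher and 8 lower and 4 higher and 5 lower, or 46.7%, 80% and 60%, with medians of 0.14, -0.28 and -0.01. Phkg1, the muscle catalytic subunit of phosphorylase kinase, fell from 19.5 ± 3.10 to 1.87 ± 0.609 CPM at 6 weeks, and Ugp2, which makes UDP-glucose, rose at each age, by 1.09 ± 0.14 at 6 weeks. Of 14 genes of the pentose phosphate and hexosamine pathways 1 higher and 1 lower, 2 higher and 1 lower and 2 higher and 1 lower were called, or 14.3%, 21.4% and 21.4%, under the shares of all genes, with medians of 0.02, 0.08 and 0.06. Of 5 genes for making and breaking fructose 2,6-bisphosphate, an activator of phosphofructokinase, the calls were 0 higher and 3 lower, 1 higher and 3 lower and 1 higher and 1 lower, with medians of -0.41, -0.34 and 0.09. Pfkfb1 fell from 7.68 ± 3.93 to 0.409 ± 0.201 CPM at 8 weeks.

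Of 14 transcriptional regulators known to act on these genes, 1 higher and 2 lower, 1 higher and 9 lower and 1 higher and 8 lower were called in nAAC against sham, or 21.4%, 71.4% and 64.3%, with medians of -0.14, -0.49 and -0.49. Myc was the one that rose, by 1.71 ± 0.28, 2.07 ± 0.29 and 1.96 ± 0.28, while Esrra and Ppara, regulators of oxidative metabolism, fell by 0.88 ± 0.09 and 1.34 ± 0.20 on the log2 scale at 6 weeks. In Rev-nAAC against nAAC at 8 weeks 10 higher and 1 lower were called, among them Mlxipl, a glucose-sensing factor, at 0.79 ± 0.17. Of 14 genes of the hypoxia response the calls in nAAC were 6 higher and 3 lower, 7 higher and 2 lower and 8 higher and 1 lower, or 64.3%, 64.3% and 64.3%, with medians of 0.39, 0.42 and 0.56. Ndrg1 rose by 0.84 ± 0.11 at 4 weeks and 0.85 ± 0.11 at 8 weeks, and Ankrd37 by 1.16 ± 0.24, 1.30 ± 0.25 and 1.81 ± 0.25. Car9, a carbonic anhydrase, was 0.181 ± 0.0746 CPM in sham, 1.05 ± 0.389 CPM in nAAC and 0.128 ± 0.0632 CPM in Rev-nAAC at 8 weeks. In Rev-nAAC against nAAC the hypoxia list had 0 higher and 0 lower, 3 higher and 3 lower and 2 higher and 8 lower at 4, 6 and 8 weeks. Of 11 targets of fasting and PPAR, 0 higher and 4 lower, 1 higher and 6 lower and 0 higher and 7 lower were called in nAAC, or 36.4%, 63.6% and 63.6%, with medians of -0.53, -0.82 and -1.07. At 6 weeks, when Pdk4 rose, Acadm, a fatty acid dehydrogenase, fell by 1.32 ± 0.12 on the log2 scale. Angptl4, shown after its values were seen, went with Pdk4. It was 1.10 to 2.61 CPM in sham and 6.88 to 13.1 CPM in nAAC at that age, without overlap. Without the 5 doubted libraries the calls came to 2 higher and 3 lower among the regulators at 4 weeks and 4 higher and 1 lower in the pentose phosphate list at 6 weeks in nAAC against sham. In Rev-nAAC against nAAC they came to 3 higher and 0 lower in the insulin list at 8 weeks and, at 4 weeks, to 0 higher and 4 lower in the hypoxia list and 0 higher and 1 lower in the pyruvate dehydrogenase list, and against sham to 1 higher and 5 lower among the other glycolytic enzymes at 6 weeks.

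**Figure D4:**
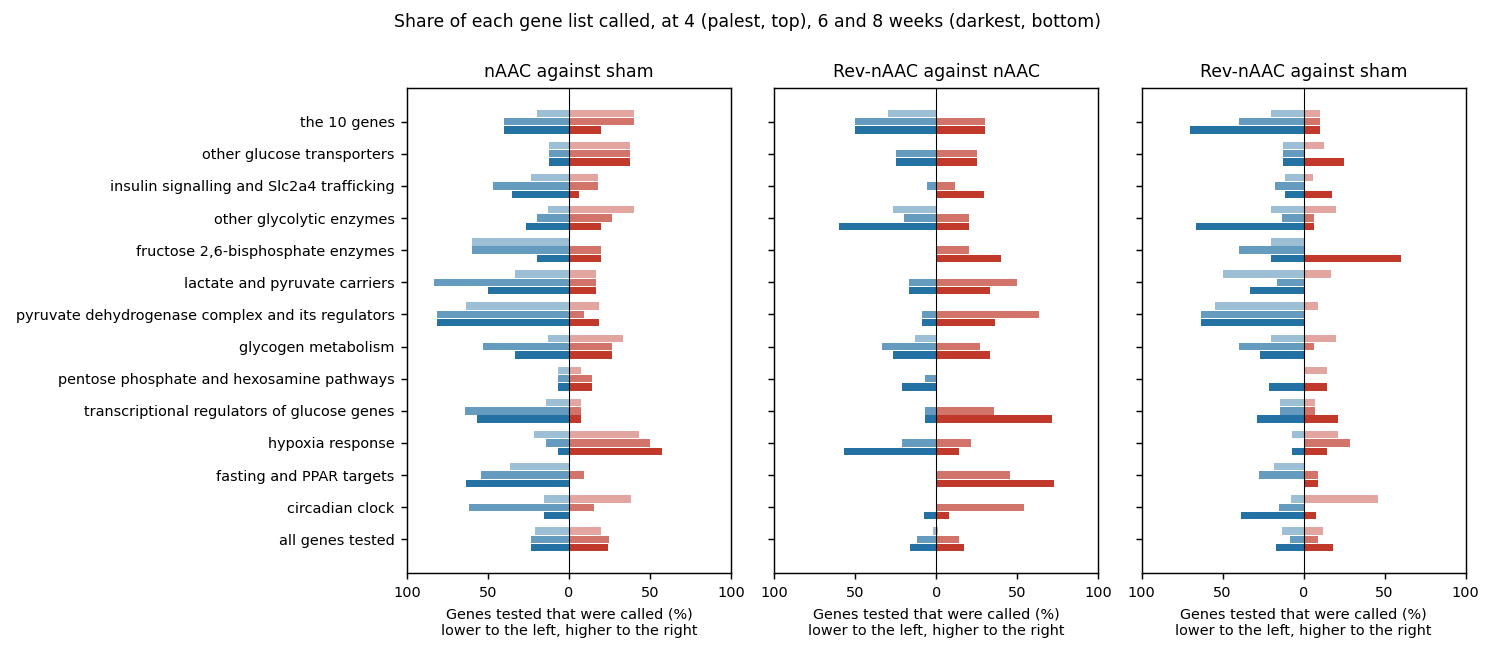
Share of each gene list called higher or lower (horizontal axis, % of the genes tested, lower to the left) in nAAC against sham, Rev-nAAC against nAAC and Rev-nAAC against sham at 3 ages. The bottom row gives all genes tested; in nAAC against sham the pyruvate dehydrogenase list has 9 of 11 genes lower at 6 and 8 weeks.

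Summed markers of several cell types differed between the operations. In bulk tissue fewer cells of a type and less RNA per cell cannot be told apart. The 8 cardiomyocyte markers summed to 56872 to 59379.5 CPM in sham, 32266 to 38852 in nAAC and 42878 to 54629 in Rev-nAAC at 6 weeks, and to 47586 to 64023, 30023 to 38062 and 37436 to 48252 CPM at 8 weeks. Of these 8 markers 4, 7 and 5 were called lower in nAAC against sham at 4, 6 and 8 weeks, beside 21.2%, 23.8% and 23.5% of all genes. At 4 weeks 1 was called higher, beside 19.5% of all genes. The 6 fibroblast markers summed to 725 to 1121 CPM in sham, 1663 to 2564 in nAAC and 897 to 1845 in Rev-nAAC at 6 weeks. Of them 2, 5 and 3 were called higher in nAAC against sham at 4, 6 and 8 weeks, beside 19.5%, 24.5% and 23.8% of all genes, and 0 lower. The 6 red cell markers summed to 59.6 to 266 CPM in sham, 182 to 1273 in nAAC and 263 to 2369 in Rev-nAAC at 8 weeks. At that age their median sum was 1004 CPM in Rev-nAAC and 542 CPM in nAAC. Of 3 atrial markers 0 higher and 3 lower were called in Rev-nAAC against nAAC at 6 weeks, beside 13.8% and 12.1% of all genes. Their sum in nAAC at that age was 339 CPM in replicate 1, beside a group median of 5.93 CPM. In Rev-nAAC it was 1.52 to 4.11 CPM. The part of that 1 nAAC library in these calls was not tested. The 4 smooth muscle markers summed to 319.6 to 623 CPM in sham, 147 to 207 in nAAC and 168 to 283 in Rev-nAAC at 4 weeks, and to 165 to 313, 166 to 259 and 192 to 262 CPM at 8 weeks, where the groups overlapped. Of these 4 markers 0 higher and 1 lower were called in nAAC against sham at 4 weeks, beside 19.5% and 21.2% of all genes. Without the 5 doubted libraries 2 higher and 1 lower were called, so the sum does not stand for each marker. The 6 macrophage markers summed to 217 to 289.7, 157 to 229.8 and 93.3 to 238 CPM and the 6 endothelial markers to 1089.8 to 1379.6, 1160.4 to 1561 and 1335 to 1737 CPM at 8 weeks. Genes of the mitochondrial genome took 23.9% to 26.9% of counts in sham, 19.9% to 23.1% in nAAC and 23.2% to 26.1% in Rev-nAAC at 8 weeks, and 28.2% to 32.3%, 18.7% to 27.9% and 24.2% to 27.6% at 6 weeks. With these genes left out of the totals, the member calls in nAAC against sham were the same at each age. The part of cell makeup in the fall of Slc2a4, Hk2 and Pfkm and in the rise of Slc2a1, Pfkp and Hk1 was not tested.

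The genes whose 9 group means ran closest to those of a member were named for the 4 members called at all 3 ages in nAAC against sham. Likeness is the root mean square distance between centred log2 CPM over the 9 groups, among 11848 genes with at least 2 CPM on average. For Slc2a1 these were Itgb5, an integrin subunit, Mafk and Etv5, at distances of 0.149, 0.153 and 0.177 on the log2 scale, beside a range of 2.05 in Slc2a1 itself. For Pfkp they were Adam9, Snap91 and Plekha7, at 0.0972, 0.107 and 0.109, beside a range of 1.25. For Hk2 they were Zfp759, Taf4b and Ptgr3, at 0.0696, 0.0766 and 0.0879, beside a range of 1.01. Pfkm ran closest to the mitochondrial genes Hsd17b10 and Slc25a3, the phosphate carrier, at 0.0473 and 0.0519, and to Pln, a regulator of the calcium pump and 1 of the cardiomyocyte markers, at 0.0545, beside a range of 0.83.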

How the data were processed

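RNA-seq of 45 mouse left ventricle libraries (9 groups of 5) was used. Reads were handled with fastp 0.20.1, HISAT2 2.1.0 and HTSeq 0.11.2 on GRCm38/mm10, per the submitters' processing notes; the deposited values are raw counts per gene, and the annotation and strand setting are not given in the sources used here. Counts were compared with edgeR 4.0.16 (R 4.3.3): TMM scaling, filterByExpr with a minimum count of 10 and a minimum total of 15 (15444 of 27007 genes kept), a robust quasi-likelihood fit over all 9 groups without covariates, and Benjamini-Hochberg adjustment over all genes tested at 0.05. This gave 14 comparisons. SE is the absolute log2 fold change over the square root of F. Library totals of 31586082 to 35965976 counts limit the counting error of every member. No libraries held identical values. The fit was also run on simulated counts with 200 changed genes and the same spread in every group. That run cannot show how the fit handles groups of unequal spread.

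The members, gene lists and tests were chosen with earlier results of these data known. All members are named; of each pathway list, up to 4 called genes with the smallest p in a comparison are named. Some of these are not reported here. CPM use TMM-scaled totals. Exon lengths and overlaps come from a GRCm38 annotation and promoters from RefSeq GRCm38.p6. The sex of a library was taken from its Xist and Y-linked transcripts. Alternatives were RLE or upper-quartile scaling, leaving out mitochondrial genes, no filter, DESeq2 1.42.0, voom in limma 3.58.1, sex as a covariate, male libraries only, the replicate number as a block, other sets of libraries, and leaving out each library in turn. Levels by the longest transcript, and the fasting list without Rev-nAAC 8-week replicate 4, were added after seeing the data. Replicate numbers were not taken to pair libraries: of 5 same-numbered pairs in a comparison, at most 2 had deviations correlated above 0.1.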

Additional observations from a re-analysis of the deposited data

Results flagged for a closer look

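In each group of 5 libraries, the gap between the most extreme value and its neighbour was compared with the group's range; 7 of the 90 groups stood out (10 genes by 9 groups), where chance gives about 1 in 20. Slc2a4 in nAAC at 6 weeks was 199 CPM in replicate 1, beside 171 CPM in the next library. Pfkm stood out in the same library, at 610.4 CPM beside 499 CPM. Pfkm in Rev-nAAC at 6 weeks was 962 CPM in replicate 4, with 757 CPM next. Hk1 in Rev-nAAC at 4 weeks was 213 CPM in replicate 2, the library with the most red cell transcripts, with 150.4 CPM next. Pfkp in nAAC at 8 weeks was 166 CPM in replicate 1, with 139 CPM next. Pkm in nAAC at 8 weeks was lowest in replicate 4, at 866 CPM, with 943 CPM next. Pdk4 in Rev-nAAC at 6 weeks was 1431 CPM in replicate 5, with 181 CPM next.

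The effect of an operation differed between ages in the cases that follow, by the test of the difference itself. For nAAC against sham between 6 and 4 weeks the log2 differences were -0.89 for Slc2a4, -0.88 for Slc2a1, -0.53 for Hk2 and -0.53 for Pfkm. Between 8 and 4 weeks they were -0.92 for Slc2a4 and -0.43 for Gpi1. For Rev-nAAC against nAAC they were 0.61 for Slc2a4 and 0.58 for Pfkm between 6 and 4 weeks, and -0.58 for Pfkp between 8 and 4 weeks.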

How the results depend on the processing

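The counts of called members stayed within 1.5 times their value under every alternative run in nAAC against sham at 4, 6 and 8 weeks, and at 6 weeks in Rev-nAAC against nAAC and against sham. With the replicate number as a block, the counts for the 14 comparisons were 6, 8, 6, 3, 8, 8, 3, 5, 8, 3, 4, 2, 2 and 1, the same as without it. In Rev-nAAC against nAAC at 4 weeks the count of 3 became 5 in male libraries, 5 without the 5 doubted libraries and 0 with the compared groups alone; at 8 weeks the 8 became 3 in male libraries. In Rev-nAAC against sham, the 3 at 4 weeks became 1 without a filter and 1 with nAAC replicate 1 counted as sham, and the 8 at 8 weeks became 4 in male libraries. The 3 of sham at 8 against 4 weeks became 6 with voom, 5 in male libraries and 5 with the compared groups alone. For the nAAC effect, the 4 between 6 and 4 weeks became 1 in male libraries, and the 2 between 8 and 4 weeks became 4 with nAAC replicate 1 counted as sham. For Rev-nAAC against nAAC, the 2 between 6 and 4 weeks became 1 without a filter and 0 with voom, in male libraries, with the recounted replicate, without the doubted libraries and with the compared groups alone. The 1 between 8 and 4 weeks became 0 under those last 5 settings and 0 with sex as a covariate. Male libraries and compared groups alone hold fewer libraries, though the sham libraries compared with age are the same under both. The cause of these moves was not tested.

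Leaving out 1 library at a time, the counts ran from 5 to 7, 7 to 8 and 6 to 6 in nAAC against sham at 4, 6 and 8 weeks, from 1 to 5, 7 to 8 and 7 to 9 in Rev-nAAC against nAAC, and from 1 to 4, 4 to 6 and 7 to 8 in Rev-nAAC against sham. They ran from 3 to 3 for sham with age, 3 to 6 and 2 to 3 for the nAAC effect, and 0 to 3 and 0 to 3 for Rev-nAAC against nAAC. Of 3480 alternative values of the 140 member results, 3269 kept their side of the threshold, 127 lost a call and 83 gained one. The 3269 include 108 that changed sign without passing in either fit. The 1 that reversed was Pdk4 in Rev-nAAC against nAAC at 8 weeks, -0.34 in male libraries.

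Over all genes, calls in Rev-nAAC against nAAC at 4 weeks were 394 in the reported fit, 670 with DESeq2, 710 with voom, 242 without a filter, 749 in male libraries, 1215 with the recounted replicate, 993 without the doubted libraries and 0 with the compared groups alone. In male libraries nAAC against sham at 6 weeks gave 4500 in place of 7453, Rev-nAAC against nAAC 1069 in place of 4002 at 6 weeks and 596 in place of 5083 at 8 weeks, and Rev-nAAC against sham at 8 weeks 1907 in place of 5500. Voom gave 4556 in place of 2634 for Rev-nAAC against sham at 6 weeks and 6324 in place of 3506 for sham with age, which became 5391 with the compared groups alone. The nAAC effect gave 824 in place of 2669 between 6 and 4 weeks in male libraries, and 3599 in place of 2094 between 8 and 4 weeks with voom. Rev-nAAC against nAAC between 6 and 4 weeks gave 416, and 787 with DESeq2, 153 with voom, 230 without a filter, 3 in male libraries, 203 with the recounted replicate, 53 without the doubted libraries and 3 with the compared groups alone. Between 8 and 4 weeks it gave 1222, and 718 without a filter, 519 with sex as a covariate, 5 in male libraries, 127 without the doubted libraries and 0 with the compared groups alone.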

Other observations

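Transcripts of the circadian clock differed between the operations, with different counts of calls at each age. Of 13 clock genes, 5 higher and 2 lower were called in nAAC against sham at 4 weeks, 2 higher and 8 lower at 6 weeks and 0 higher and 2 lower at 8 weeks, or 53.8%, 76.9% and 15.4% of the list beside 40.7%, 48.3% and 47.2% of all genes. Per2 rose by 1.60 ± 0.47 and Dbp by 1.52 ± 0.50 at 4 weeks, while Ciart fell by 3.37 ± 0.45 and Nr1d2 by 1.85 ± 0.28 on the log2 scale at 6 weeks. In Rev-nAAC against sham Dbp was higher at 4 weeks, by 1.73 ± 0.50, and lower at 8 weeks, at -2.35 ± 0.51. At 4 weeks Dbp was 64.5, 19.3, 13.5, 76.9 and 12.5 CPM in Rev-nAAC, beside 8.82 to 18.2 CPM in sham. In nAAC it was 63.5, 17.9, 37.1, 25.4 and 16.4 CPM at that age, highest in replicate 1. Without the 5 doubted libraries 3 higher and 2 lower of the clock genes were called in nAAC against sham at 4 weeks.

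A number of targets of fasting and PPAR were higher in Rev-nAAC than in nAAC at the later ages. Of 11 genes, 5 higher and 0 lower were called at 6 weeks and 8 higher and 0 lower at 8 weeks, beside 13.8% and 16.9% of all genes higher and 12.1% and 16% lower, with medians of 0.69 and 1.23 beside 0.01 and 0.03 over all genes. Acot1, a thioesterase of fatty acyl-CoA, rose by 2.27 ± 0.52 and 4.18 ± 0.56, and at 8 weeks Plin5, a lipid droplet protein of oxidative tissues, rose by 1.23 ± 0.19. Rev-nAAC 8-week replicate 4, with 64.4 CPM of Acot1 beside 5.51 to 15.1 CPM in the other libraries of its group, was the highest for both genes. Without it Acot1 rose by 3.23 ± 0.47 at 8 weeks (adjusted p = 5.16e-06 in edgeR's quasi-likelihood test), and 7 of the 11 genes were called higher and 0 lower.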
